A study of Mus musculus with 5 samples.

Results

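A set of 10 transcription factors that steer intestinal epithelial cells toward absorptive or secretory fates was followed in mouse colon spheroids, out of 32793 genes in the deposited tables. The members were chosen by name, with earlier results of these data known: Hes1, Sox9, Atoh1, Gfi1, Spdef, Klf4, Creb3l1, Foxa1, Foxa2 and Neurog3. Each had a row in both tables, and all 10 passed the filter on low counts that left 13501 genes for testing. Colon spheroids are three-dimensional cultures of colon epithelium. RNA from 5 cultures was sequenced in bulk from stranded mRNA libraries. In the NDD group (2 libraries, titled RA) the cells carried the dimerization-deficient alleles Notch1DD and Notch2DD, and in the WT group (3 libraries) both genes were wild type. The mice of both groups were of a mixed background, C57Bl6 for the most part with some FVB. Ages, sexes and treatments are not given, and nothing in the labels says whether the cultures of a group came from separate mice, so the p-values measure the spread between these libraries, which may be technical.

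Notch receptors release an intracellular domain that joins the DNA-binding protein RBPJ and switches on Hes1, a repressor. HES1 holds down Atoh1, the factor that commits a crypt cell to the secretory lineage. Cells with high HES1 become absorptive colonocytes, and cells that escape it turn on Atoh1 and then the factors that separate goblet from enteroendocrine cells. On some promoters, the one of Hes1 among them, the Notch complex can sit as a pair on facing RBPJ sites, which is the contact the NDD alleles remove.

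The libraries held 19192389 to 23064000 counts. Both Notch genes were transcribed in every library. Notch1 was at 9.91 and 9.07 TPM (a transcript level scaled for length and library total) in NDD and at 12.0, 10.48 and 9.94 TPM in WT. Notch2 was at 6.06 and 3.89 TPM in NDD and at 5.90, 5.55 and 8.84 TPM in WT. Their RNA level does not check the alleles. The summed level of 8 epithelial markers was 13682 to 15740 TPM in all 5 libraries, and Hoxb13, a gene of the distal gut, was at 269 to 523 TPM. Markers of other cell types were at or near 0: 8 fibroblast markers summed to 0.20 to 0.46 TPM (Lum and Thy1 at 0 counts), 5 endothelial markers to 0.02 to 0.10 TPM (Kdr and Emcn at 0 counts) and 6 glial and neuronal markers to 0.62 to 1.02 TPM (Sox10 at 0 counts). The 9 immune markers summed to 3.26 to 4.21 TPM in NDD and 5.10 to 8.12 TPM in WT, most of it Cd68, while Ptprc, the pan-leukocyte marker, had at most 2 counts in a library. NDD replicate 2 stood apart: 12 proliferation genes summed to 528 TPM there, against 1406 TPM in NDD replicate 1 and 1369 to 1552 TPM in WT. The fold changes of the 10 factors are therefore also given with an NDD library left out. In bulk RNA, fewer cells of a type and less RNA per cell cannot be told apart.

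None of the 10 fate factors passed an adjusted p of 0.05 in edgeR's quasi-likelihood test, where 0.0889% of all tested genes did (12 of 13501). DESeq2, which called 2.64% of all genes, limma-voom and limma on TPM called none of them either. At an unadjusted p under 0.05 there were 3 (Foxa2 and Creb3l1 toward higher and Foxa1 toward lower in NDD), against 11.2% of all tested genes. The same 3 were the members whose NDD and WT libraries did not overlap in CPM (counts scaled to library size with TMM factors), against 32.0% of all tested genes, so 3 of 10 is near the background. The median log2 fold change of the 10 was 0.42, beside -0.0047 over all tested genes, with 9 of 10 above 0. That median depended on single libraries, at 0.76 and 0.16 when NDD replicate 1 or 2 was left out and 0.26 when WT replicate 3 was. Exact two-sided permutation tests on log2 CPM gave p = 0.2 for these 3 genes, the smallest value that 2 against 3 libraries allow, and 0.4 to 1.0 for the other 7.

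**Figure D1:**
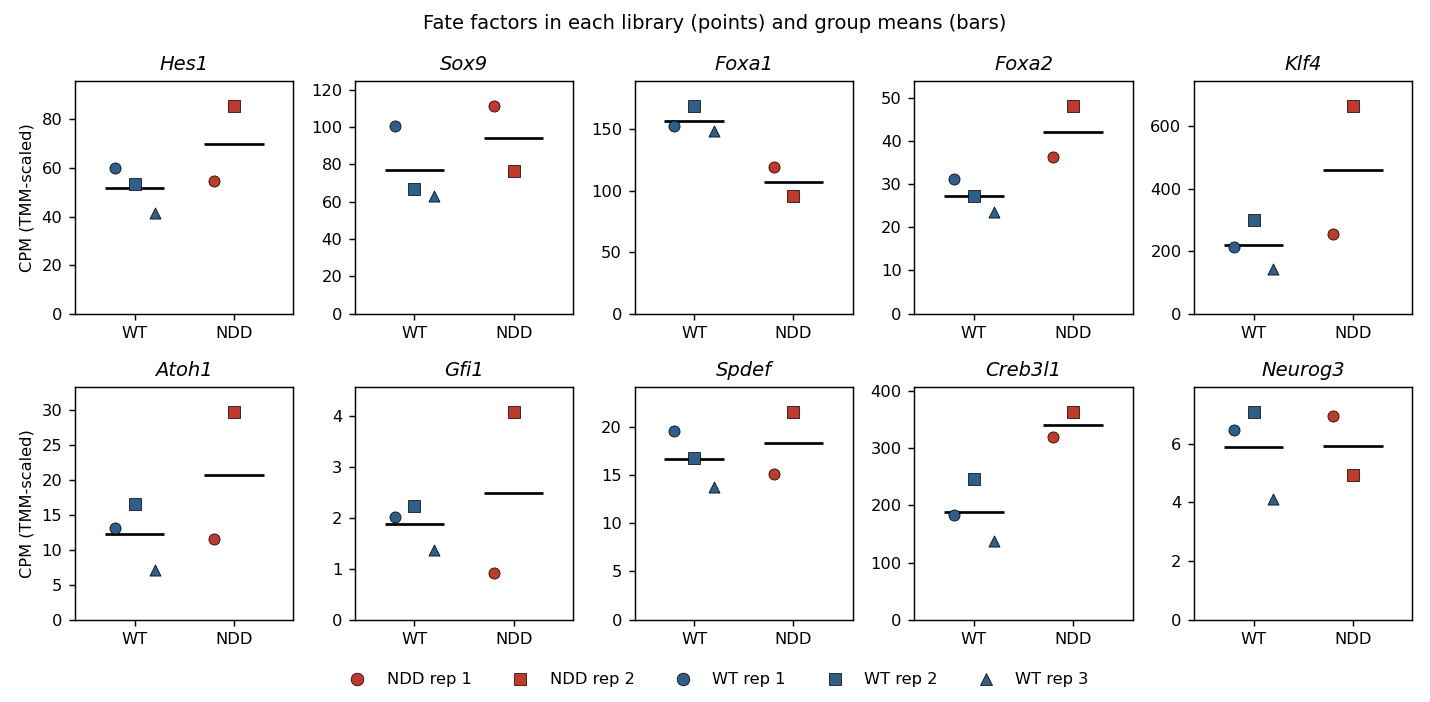
CPM of each fate factor (vertical axes, from 0, each panel on its own scale) in the 3 WT and 2 NDD libraries (points), with group means (bars). The groups are separate for Foxa1, Foxa2 and Creb3l1 and overlap in the other 7 panels, and NDD replicate 2 is the highest point for 7 genes.

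Hes1 encodes the repressor that carries the Notch signal to the fate decision, and it lies at chr16:30064384-30067796 (mm10). It was at 54.6 and 85.6 CPM in NDD and at 60.1, 53.4 and 41.4 CPM in WT. NDD replicate 2 was above every WT library, while NDD replicate 1 lay inside the WT range. The group means were 70.1 (SD 21.9, n = 2) and 51.7 (SD 9.46, n = 3), and the fitted difference was 0.44 on the log2 scale (SE 0.24, edgeR adjusted p 0.484). Which NDD library was kept set its size: 0.72 without NDD replicate 1 and 0.09 without NDD replicate 2. None of the 31-base sequences of Hes1 occurs in a transcript of another gene.

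Of the 13 relatives and partners of Hes1 on the list of HES, HEY and ID repressors, 6 had enough counts to be tested and none was called (edgeR). The median log2 fold change of the 6 was -0.095, at 0.21 or -0.82 when NDD replicate 1 or 2 was left out. Hes3 and Hey2 had 0 counts in every library (a floor of 3 counts is 0.130 to 0.156 CPM), and Hes5, Hes7, Hey1, Heyl and Id4 had at most 8 counts in any. Hes6, which counteracts HES1, was at 75.7 and 76.6 TPM in NDD and 79.0, 92.2 and 91.9 TPM in WT (log2 fold change -0.17, SE 0.14). Id1, an inhibitor of basic helix-loop-helix factors, had its lowest and highest level in the NDD libraries, 75.4 and 256 TPM, around WT levels of 152, 162 and 211 TPM. Nrarp, a feedback inhibitor that Notch induces, was at 18.8 and 21.4 TPM in NDD and 16.6 to 21.2 TPM in WT. Id2 was the 1 of the 6 tested members with an unadjusted p under 0.05, beside 11.2% of all tested genes. Like Nrarp, Id2 is named here after its values were seen. It had 73 and 136 counts in NDD and 162, 355 and 720 in WT, and its estimated log2 difference was -1.94 (SE 0.62, adjusted p 0.413). Id2 passed the threshold with DESeq2.

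Atoh1, which sets the secretory lineage, is a single-exon gene at chr6:64729125-64731245 (mm10). It was at 11.6 and 29.7 CPM in NDD and at 13.1, 16.5 and 7.12 CPM in WT. NDD replicate 1 lay inside the WT range and NDD replicate 2 above it, so the NDD libraries differed from each other by 2.56-fold and the WT libraries by 2.32-fold. The estimated log2 difference, 0.75 (SE 0.48, edgeR adjusted p 0.515), was -0.062 without NDD replicate 2 and 1.27 when NDD replicate 1 was left out. The repressor and its target had the same extremes: both were highest in NDD replicate 2 and lowest in WT replicate 3. These extremes were not particular to the pair, as Spdef, Foxa2, Klf4 and Creb3l1 had them too. Of all tested genes, 33.9% were highest in NDD replicate 2 and 26.0% lowest in WT replicate 3. Per transcript length, Hes1 exceeded Atoh1 by 7.13-fold and 4.37-fold in the NDD libraries and by 6.96-fold, 4.91-fold and 8.85-fold in WT. The mean log2 ratio was 2.48 (SD 0.50, n = 2) in NDD and 2.75 (SD 0.43, n = 3) in WT, a gap smaller than either SD.

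Gfi1, a zinc finger repressor that ATOH1 induces and that steers secretory cells away from the enteroendocrine path, was the least abundant member. It had 21 and 87 counts in NDD and 39, 51 and 32 in WT. In CPM the NDD libraries were the lowest and the highest of all 5, at 0.918 and 4.07, with WT between them at 2.02, 2.24 and 1.37. Its log2 difference between groups, 0.41 (SE 0.64, adjusted p 0.769), turned to -1.01 without NDD replicate 2 and was 1.11 when the other NDD library was left out. An antisense gene, A430072P03Rik, shares exon sequence with Gfi1 (1.65% of the 31-base sequences of Gfi1). Whether the counting used strand is not given in the sources used here, so reads there cannot be told apart unless strand was used.

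Klf4, a zinc finger factor needed for goblet cell maturation in the colon and a brake on division, was at 256 and 664 CPM in NDD and at 215, 299 and 144 CPM in WT. NDD replicate 1 lay below WT replicate 2, and NDD replicate 2 stood far above the other 4 libraries. Its log2 fold change was the largest of the 10, at 1.07 (SE 0.45, unadjusted p 0.0546, edgeR adjusted p 0.456), but leaving out NDD replicate 2 gave 0.24 and leaving out NDD replicate 1 gave 1.59. Proliferation genes were lowest in the library where Klf4 was highest: Pcna, the polymerase clamp, was at 303 and 104 TPM in NDD and 301 to 332 TPM in WT, and Ccna2, a cyclin, at 203 and 85.0 TPM in NDD and 200 to 219 TPM in WT. None of the 12 was called (edgeR), 0 had an unadjusted p under 0.05, and their median log2 fold change of -0.58 was -1.24 or -0.07 when NDD replicate 1 or 2 was left out. Their part in the result for Klf4 was not tested.

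Spdef, an ETS factor that acts after ATOH1 to mature goblet and Paneth cells, had much the same level in both groups. It was at 15.04 and 21.5 CPM in NDD and at 19.5, 16.7 and 13.8 CPM in WT, and NDD replicate 1 lay inside the WT range with NDD replicate 2 just above it. The log2 fold change was 0.13 (SE 0.23, adjusted p 0.797), with 0.36 and -0.13 when NDD replicate 1 or 2 was left out.

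Creb3l1 encodes OASIS, a membrane-bound factor of the endoplasmic reticulum that supports the late maturation of goblet cells, and lies at chr2:91982328-92024502 (mm10). It was at 319 and 363 CPM in NDD and at 183, 247 and 137 CPM in WT. Both NDD libraries were above every WT library, and they agreed within 1.14-fold, whereas the WT libraries spanned 1.80-fold. The means were 341 (SD 30.9, n = 2) and 189 (SD 55.2, n = 3), and the log2 difference was estimated at 0.85 (SE 0.25, unadjusted p 0.013, edgeR adjusted p 0.390). With DESeq2 the adjusted p was 0.0613. Leaving out any 1 library gave 0.67 to 1.11.

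**Figure D2:**
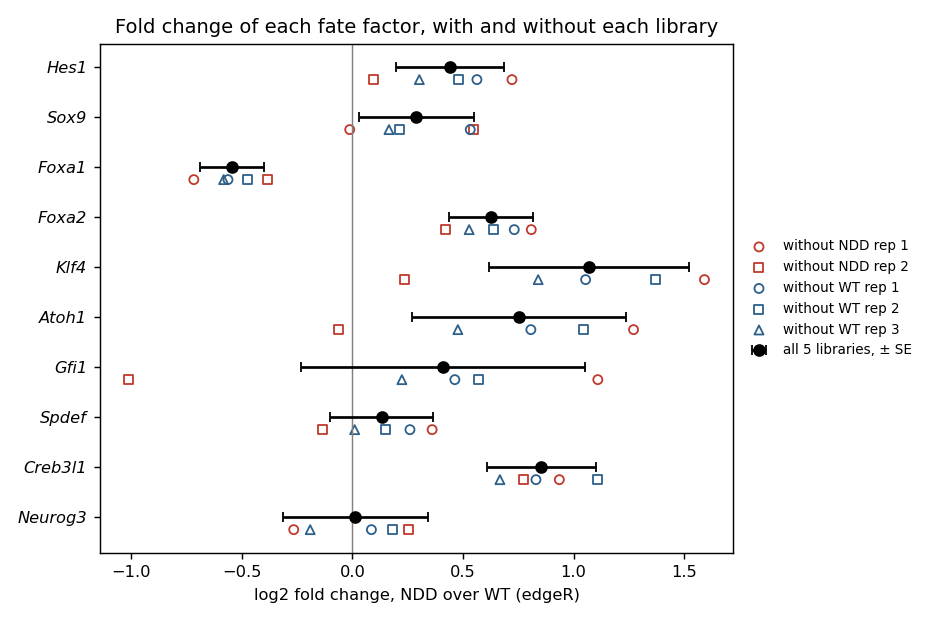
Log2 fold change of each fate factor, NDD over WT, from edgeR on all 5 libraries (filled points, bars are SE) and after leaving out each library in turn (open symbols). Foxa1, Foxa2, Creb3l1, Klf4 and Hes1 stay on 1 side of 0 throughout, and Gfi1 ranges from -1.01 to 1.11.

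FOXA1 and FOXA2 are paralogous forkhead factors that open chromatin and act, partly in place of each other, in goblet and enteroendocrine differentiation. Their genes lie at chr12:57540628-57546916 and chr2:148042877-148046969 (mm10). Foxa1 was at 119 and 95.9 CPM in NDD and at 153, 169 and 149 CPM in WT, with every NDD library below every WT library. Its log2 fold change was -0.54 (SE 0.15, unadjusted p 0.00898, edgeR adjusted p 0.351; DESeq2 adjusted p 0.0674). Foxa2 had the opposite order, at 36.2 and 48.1 CPM in NDD and 31.2, 27.2 and 23.5 CPM in WT, with every NDD library above every WT library. Its log2 fold change was 0.63 (SE 0.19, unadjusted p 0.0161, edgeR adjusted p 0.403; DESeq2 adjusted p 0.155). Without NDD replicate 1, adjusted p-values were 0.0376 for Foxa1 (log2 fold change -0.72) and 0.0451 for Foxa2 (0.81), in a fit that assumes the lone NDD library varies like WT and that called 8.62% of all genes. Without NDD replicate 2 the values were -0.38 and 0.42.

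With fold changes of opposite sign, the ratio of the paralogs shows both at once. Per transcript length, Foxa1 exceeded Foxa2 by 2.06-fold and 1.25-fold in the NDD libraries and by 3.07-fold, 3.88-fold and 3.95-fold in WT. The mean log2 ratio was 0.68 (SD 0.51, n = 2) in NDD and 1.85 (SD 0.20, n = 3) in WT, a difference of -1.17. Leaving out NDD replicate 2 gave -0.81, and leaving out NDD replicate 1 gave -1.53. This ratio was chosen after the values of both genes were seen, so it is given without a test. Of the 31-base sequences of Foxa1, 8 also occur in Foxa2 (0.243%).

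**Figure D3:**
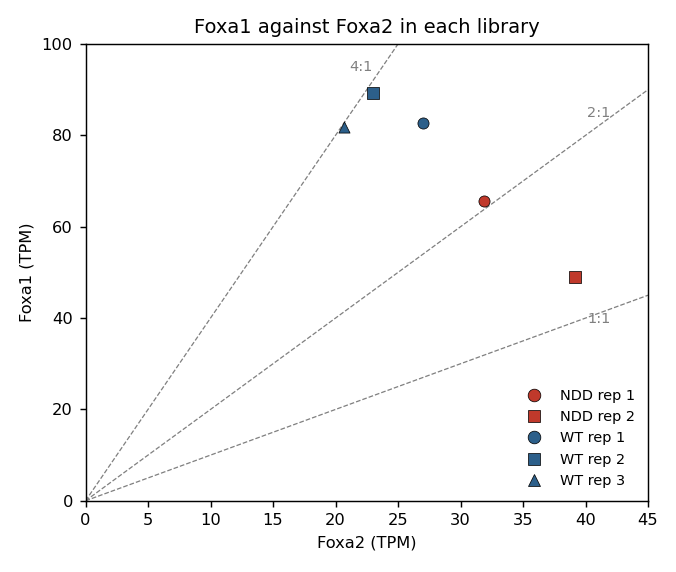
Foxa1 (vertical axis) against Foxa2 (horizontal axis), both in TPM, in each of the 5 libraries, with dashed lines at ratios of 1, 2 and 4. The 3 WT libraries lie between ratios of 3.07 and 3.95 and the 2 NDD libraries at 2.06 and 1.25.

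The promoter windows of these genes were read from RefSeq (GRCm38.p6, from 250 bases before to 50 bases after a start), where 7 of the 10 members matched with 10 windows. Short letter patterns were searched on both strands: TGGGAA, the core that RBPJ binds; CACNAG, the N box of HES repressors; CAGCTG, an E box of the kind ATOH1 binds; and TGTTTAC, the core of forkhead factors. No pattern contains another. They occur in 25.6%, 42.5%, 16.3% and 3.65% of 32851 windows of the same length. The forkhead core was found in the window of Foxa1 alone among the members, at position -141 from the start, and an N box in 1 of the 3 windows of Foxa2, at position -226. Both windows are shown because these paralogs had fold changes of opposite sign, with the matches in capitals.
Foxa1 (chr12:57546062-57546361, minus strand): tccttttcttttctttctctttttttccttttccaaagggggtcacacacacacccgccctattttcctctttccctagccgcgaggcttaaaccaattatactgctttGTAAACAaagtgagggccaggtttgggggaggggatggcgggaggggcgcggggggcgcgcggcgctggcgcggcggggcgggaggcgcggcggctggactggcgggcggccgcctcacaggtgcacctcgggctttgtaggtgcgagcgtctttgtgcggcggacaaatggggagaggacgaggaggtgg
Foxa2 (chr2:148046920-148047219, minus strand): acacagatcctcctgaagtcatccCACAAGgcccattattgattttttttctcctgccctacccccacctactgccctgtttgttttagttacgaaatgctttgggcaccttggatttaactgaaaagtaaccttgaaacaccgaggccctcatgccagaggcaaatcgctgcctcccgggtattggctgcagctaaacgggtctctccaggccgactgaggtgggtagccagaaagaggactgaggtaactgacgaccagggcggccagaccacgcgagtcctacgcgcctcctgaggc

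Windows with a match are also shown for Atoh1, Klf4 and Spdef, 3 factors that act along the path to goblet cells. All 3 were highest in NDD replicate 2, as was Gfi1, whose windows are not shown. Atoh1 held an N box at position 24 on the opposite strand, Klf4 an E box at position -247, and Spdef the only RBPJ core among the 10 windows, at position -22. Neurog3 held an E box at position -165, and the 2 windows of Gfi1 held none of the 4 patterns. A match of letters is not a measured binding site, and these windows are short.
Atoh1 (chr6:64728875-64729174, plus strand): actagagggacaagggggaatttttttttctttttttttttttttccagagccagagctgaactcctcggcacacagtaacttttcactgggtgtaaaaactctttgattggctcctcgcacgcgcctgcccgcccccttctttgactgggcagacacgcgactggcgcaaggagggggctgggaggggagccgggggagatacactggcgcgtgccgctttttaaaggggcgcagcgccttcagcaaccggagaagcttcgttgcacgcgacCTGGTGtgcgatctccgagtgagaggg
Klf4 (chr4:55532426-55532725, minus strand): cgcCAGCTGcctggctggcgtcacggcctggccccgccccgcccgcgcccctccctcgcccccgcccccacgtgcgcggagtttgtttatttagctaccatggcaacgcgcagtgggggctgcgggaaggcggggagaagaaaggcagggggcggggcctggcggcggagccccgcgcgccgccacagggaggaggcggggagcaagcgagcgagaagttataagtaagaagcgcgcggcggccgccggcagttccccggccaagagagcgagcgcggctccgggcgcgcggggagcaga
Spdef (chr17:27728902-27729201, minus strand): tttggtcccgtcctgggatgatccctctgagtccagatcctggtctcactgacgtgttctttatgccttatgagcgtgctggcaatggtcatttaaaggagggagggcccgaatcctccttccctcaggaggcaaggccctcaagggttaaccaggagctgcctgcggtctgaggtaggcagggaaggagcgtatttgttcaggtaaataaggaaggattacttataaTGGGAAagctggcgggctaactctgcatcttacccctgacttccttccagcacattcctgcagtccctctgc

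The products that goblet factors serve were compared next, from a list of 20 genes that were all tested. Retnlb was the 1 gene called, and it rose: it had 333 and 216 counts in NDD and 1, 2 and 0 in WT (edgeR adjusted p 0.0197). The call was lost when WT replicate 1, 2 or 3 was left out, with adjusted p-values of 0.157, 0.109 and 0.0563. The fitted log2 fold change was 7.90 with all libraries and 7.98, 8.73 and 7.33 in those fits. With limma on log2(TPM + 1) it was 5.13. At 3 WT counts in all, its size depends on the prior count or pseudocount. It stayed large and positive in each of these fits, while its exact size is not fixed. Retnlb encodes a secreted protein of colonic goblet cells. At an unadjusted p under 0.05, 7 goblet products were higher and 1 lower, beside 6.49% higher and 4.68% lower over all tested genes. The list was assembled by hand with earlier results of these data known, so these counts are descriptive and not an independent test. The median log2 fold change of the list was 0.44, and 0.21 without NDD replicate 2. Of the 2 most abundant members, Tff3, a trefoil peptide, was at 898 and 812 TPM in NDD and 678, 924 and 792 TPM in WT (log2 fold change 0.14, adjusted p 0.703), with 0.026 or 0.30 when WT replicate 1 or 2 was left out. Agr2, a disulfide isomerase for mucin, was at 547 and 684 TPM in NDD and 471, 456 and 382 TPM in WT (log2 fold change 0.53, adjusted p 0.435). For Agr2, leaving out NDD replicate 2 gave 0.32, and leaving out NDD replicate 1 gave 0.73.

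Among the other goblet genes named by rule, Best2, an anion channel, was at 4.89 and 7.65 TPM in NDD and 0.95, 1.18 and 0.60 TPM in WT (log2 fold change 2.82, SE 0.42, adjusted p 0.119). For Capn9, a calpain protease, the log2 fold change was 1.55 (SE 0.39, adjusted p 0.317). Fxyd3, a regulator of the sodium pump, was at 46.3 and 24.5 TPM in NDD and 105, 117 and 181 TPM in WT (-1.90, SE 0.35, adjusted p 0.193). With DESeq2 these 3 genes passed the threshold, in the same directions. Muc2, the gel-forming mucin, is named after its values were seen. It was at 64.1 and 90.5 TPM in NDD and at 148, 35.7 and 22.5 TPM in WT. Its highest library was WT replicate 1. That library was not the highest for any of the 10 fate factors, beside 14.4% of all tested genes.

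Neurog3, the factor that commits secretory progenitors to the enteroendocrine path, lies at chr10:62133090-62134763 (mm10). It was at 6.95 and 4.92 CPM in NDD and at 6.47, 7.08 and 4.12 CPM in WT, so both NDD libraries lay inside the WT range. Its log2 fold change was 0.013 (SE 0.33, adjusted p 0.987), and the sign turned without NDD replicate 1 (-0.27) or WT replicate 3 (-0.19). It was 0.25 with NDD replicate 2 left out. Fam241b on the other strand shares exon sequence with Neurog3 (14.6% of its 31-base sequences), so reads there cannot be told apart unless strand was used. Of 20 other secretory transcription factors, 15 were tested and none was called (edgeR), nor did any have an unadjusted p under 0.05. Their median log2 fold change was -0.13, with 11 of 15 below 0, and it was 0.0039 or -0.23 when NDD replicate 1 or 2 was left out and -0.030 to -0.21 when a WT library was. Xbp1, a driver of secretory capacity, was at 113 and 138 TPM in NDD and 116, 143 and 131 TPM in WT. Sox4, active in secretory progenitors, was at 52.3 and 45.7 TPM in NDD and 63.8, 53.3 and 79.6 TPM in WT (log2 fold change -0.40, SE 0.18, adjusted p 0.460), with -0.25 when WT replicate 3 was left out.

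Of 13 enteroendocrine products 10 were tested, none was called (edgeR), and the median log2 fold change was -0.13, at 0.09 or -0.31 when NDD replicate 1 or 2 was left out. Pyy, a hormone of distal L cells, was at 66.7 and 95.3 TPM in NDD and 95.9, 96.3 and 73.8 TPM in WT. Insl5, a hormone of colonic L cells, was at 45.6 and 31.9 TPM in NDD and 53.3, 34.1 and 26.3 TPM in WT. Tac1, the precursor of substance P, was the 1 product of 10 with an unadjusted p under 0.05, near the 11.2% of all tested genes. It was at 12.2 and 13.4 TPM in NDD and 5.85, 7.34 and 7.65 TPM in WT (log2 fold change 0.92, SE 0.25, adjusted p 0.359).

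Sox9, an HMG-box factor of crypt base progenitors that is also needed for Paneth cells, lies at chr11:112782224-112787760 (mm10). It was at 111 and 76.5 CPM in NDD and at 101, 66.8 and 63.1 CPM in WT. It was the only member highest in NDD replicate 1, and NDD replicate 2 was inside the WT range. The log2 difference between groups was 0.29 (SE 0.26, adjusted p 0.617), with -0.012 when NDD replicate 1 was left out and 0.55 when NDD replicate 2 was.

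Stem genes share the crypt base with Sox9. Of 12 tested, none was called (edgeR), and 5 had an unadjusted p under 0.05, all lower in NDD (4.68% of all tested genes were): Lgr5, Ascl2, Cd44, Axin2 and Ephb3, the last 2 named after their values were seen. Like the goblet list, the stem list was assembled with earlier results known, so the count is descriptive only. The median log2 fold change of the list was -0.26, with -0.63 and -0.10 when NDD replicate 1 or 2 was left out. Lgr5, the receptor that marks crypt base stem cells, had 53 and 30 counts in NDD and 181, 167 and 202 in WT (log2 fold change -2.18 on counts, SE 0.32, adjusted p 0.119). In TPM it was at 0.86 and 1.23 in NDD and 3.37, 2.57 and 3.17 in WT, where limma gave -1.46 on log2(TPM + 0.1) and -0.98 on log2(TPM + 1). Ascl2, a Wnt-driven stem cell factor, was at 8.38 and 7.61 TPM in NDD and 18.4, 20.0 and 33.6 TPM in WT (log2 fold change -1.56, SE 0.30, adjusted p 0.207). Cd44, a hyaluronan receptor and Wnt target, was at 28.4 and 18.1 TPM in NDD and 44.3, 49.9 and 101 TPM in WT. With DESeq2, Lgr5, Ascl2 and Cd44 passed the threshold, all lower in NDD. The most abundant list members were Slc12a2, an ion cotransporter, and Prom1, a membrane glycoprotein. The log2 fold change of Slc12a2 was 0.30, and 0.027 or 0.53 when NDD replicate 1 or 2 was left out. For Prom1 it was 0.13, and 0.20 or 0.069.

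Factors of the absorptive side were measured by 16 transcription factors, all tested and none called (edgeR). Their median log2 fold change was 0.22, with 0.39 and -0.01 when NDD replicate 1 or 2 was left out. Cdx1, a homeobox gene of gut identity, was at 549 and 464 TPM in NDD and 483, 467 and 469 TPM in WT. Klf5, a crypt zinc finger factor, was at 441 and 511 TPM in NDD and 474, 474 and 429 TPM in WT. An unadjusted p under 0.05 was found for 2 of the 16, near the 11.2% of all tested genes. Both are named after their values were seen: Hnf4g, a nuclear receptor of enterocyte genes (log2 fold change 0.46, SE 0.14, adjusted p 0.406), and Gata6 (-0.31, SE 0.11, adjusted p 0.437).

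For genes of mature colonocytes the median log2 fold change was larger than for these regulators. Fold changes of single genes overlapped between the lists, and the difference was not tested. Of 18 colonocyte genes tested, none was called (edgeR). At an unadjusted p under 0.05 there were 10, all higher in NDD (6.49% of all tested genes were). As this list too was assembled with earlier results of these data known, the count is descriptive and not an independent test. The median log2 fold change was 1.44 (0.88 without NDD replicate 2). WT replicate 3 stood apart from the other WT libraries here. In log2 CPM minus the mean of the 5 libraries, the list median was 0.56 and 1.03 in NDD and 0.11, -0.16 and -1.47 in WT. Without WT replicate 3 the log2 fold change of Lypd8 went from 1.08 to 0.81. Slc37a2, a sugar phosphate carrier, was at 29.6 and 22.6 TPM in NDD and 9.51, 6.36 and 5.52 TPM in WT (log2 fold change 1.89, SE 0.25, adjusted p 0.101). Ceacam20, a brush border protein, was at 29.0 and 27.9 TPM in NDD and 13.2, 9.88 and 5.90 TPM in WT. The log2 fold change was 0.83 for Slc20a1, a phosphate importer (SE 0.20, adjusted p 0.307), and these 3 genes and Lypd8 passed the threshold with DESeq2. Car1, a carbonic anhydrase, and Lypd8, an anti-bacterial surface protein, were the most abundant. Lypd8 was at 6221 and 6899 TPM in NDD and 3787, 4049 and 1933 TPM in WT, and Car1 at 4847 and 2953 TPM in NDD and 3172, 3116 and 2311 TPM in WT. The list summed to 14699 and 14072 TPM in the NDD libraries and to 9629, 9160 and 5827 TPM in WT.

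Across libraries most fate factors shared their extremes. NDD replicate 2 was the highest library for 7 of 10 members, beside 33.9% of all tested genes, and WT replicate 3 the lowest for 8 of 10, beside 26.0% of all tested genes. Centred on the mean of the 5 libraries, the median of the 10 was 0.57 in NDD replicate 2 and -0.45 in WT replicate 3 on the log2 scale, and between -0.09 and 0.10 in the other 3. The goblet products (0.47 and -0.42) and colonocyte genes (1.03 and -1.47) had the same extremes, and the proliferation genes the opposite ones (-0.96 and 0.36). The part of these programmes in the levels of the fate factors was not tested. Klf4, Atoh1 and Gfi1 spread most across the 5 libraries, and Spdef least.

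**Figure D4:**
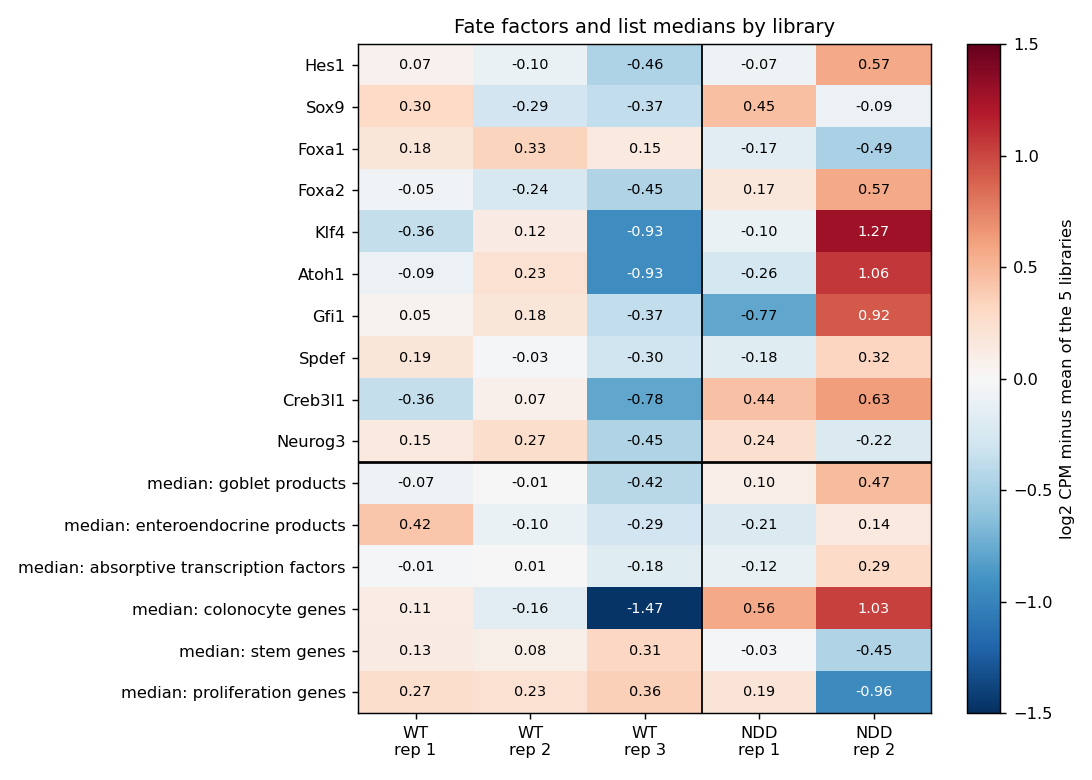
Log2 CPM of each fate factor minus its mean over the 5 libraries (colour and number), with the medians of 6 gene lists below the line, for the 3 WT and 2 NDD libraries. WT replicate 3 holds mostly low and NDD replicate 2 mostly high values, and the proliferation median is -0.96 in NDD replicate 2.

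Likeness between profiles was measured as the root-mean-square difference of these centred log2 values over the 5 libraries. Within the set the closest pairs were Hes1 with Foxa2 (0.13), Hes1 with Spdef (0.16) and Atoh1 with Klf4 (0.17). Among 10689 tested genes with a mean log2 CPM of at least 2, those nearest to Hes1 were Zfp579, Il15ra and Sirt3 (0.044 to 0.048). Nearest to Atoh1 were Tcea3, Vdr and Pld1 (0.099 to 0.12), of which Vdr, the vitamin D receptor, is also on the absorptive list. Tsc22d3, Selenow and Smim24 came nearest to Klf4 (0.094 to 0.14), and Sdc2, Gm15401 and Tlr1 to Creb3l1 (0.062 to 0.088). For Foxa1 they were Mri1, Ift27 and Vat1 (0.035 to 0.059), and for Foxa2 Pon3, Pcca and Nhlrc3 (0.039 to 0.048). Spdef was followed by Chd9, Uty and Prepl, Gfi1 by Slc39a14, Cda and Syt8, Neurog3 by Nfkbid, Bbs7 and Ipp, and Sox9 by Rbak, Boc and Zdhhc23. With only 5 libraries many genes lie close, and these names describe the libraries alone.

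Per transcript length, the members spanned about 2 orders of magnitude. Mean TPM over the 5 libraries put them in the order Creb3l1 (193), Klf4 (175), Hes1 (75.4), Foxa1 (73.7), Sox9 (34.1), Foxa2 (28.4), Spdef (17.1), Atoh1 (13.0), Neurog3 (7.09) and Gfi1 (1.69). Most neighbours overlapped in range: Creb3l1 exceeded Klf4 in 4 of 5 libraries and Hes1 exceeded Foxa1 in 2 of 5, which were the 2 NDD libraries. This order is a mean over both genotypes. The ranges of Foxa1 and Sox9, of Foxa2 and Spdef, and of Neurog3 and Gfi1 did not overlap. The late goblet factors Creb3l1 and Klf4 were more abundant than the early factors Atoh1 and Gfi1 in each of the 5 libraries.

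**Figure D5:**
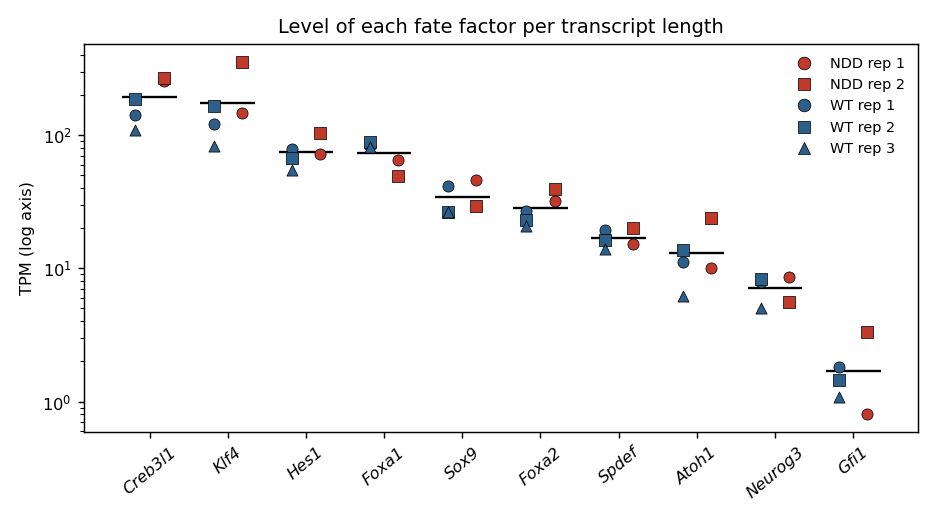
TPM of each fate factor on a log axis, in order of the mean over the 5 libraries (bars), with each WT library (blue) and NDD library (red) as a point. Means run from 193 TPM for Creb3l1 to 1.69 TPM for Gfi1.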

How the data were processed

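Spheroid RNA was sequenced by the authors in 2 NDD and 3 WT libraries. The deposited tables hold estimated counts per gene as whole numbers, read as rounded RSEM estimates, and TPM (scaled by the authors to 1000000 per library). Bowtie2, RSEM and mm10 are named in the submitters' processing notes. Tool versions, the gene annotation and the strand setting are not given in the sources used here. Groups came from the genotype labels.

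Estimated counts of all genes were tested with edgeR 4.0.16 in R 4.3.3 (quasi-likelihood, robust prior, TMM factors, filterByExpr, no covariate), with Benjamini-Hochberg adjustment over 13501 genes and a threshold of 0.05. Standard errors (SE) are |log2 fold change| over the root of the F statistic. Exact permutation tests used scipy 1.17.1. Alternatives were RLE factors, DESeq2 1.42.0, limma-voom and limma 3.58.1 on log2(TPM + 1) or log2(TPM + 0.1), other filters, a non-robust prior, a replicate block and leaving out each library. The code was tested on simulated counts. Totals of 19192389 to 23064000 counts set a floor of 3 counts (95% confidence), which covers counting error only.

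The 10 members and the 10 other gene lists (hand-assembled, not published signatures) were chosen with earlier results of these data known. Genes named outside the members are, per list, the 2 most abundant in TPM, those with an adjusted p under 0.05 or an unadjusted p under 0.01, and for each member the 3 nearest profiles. Gene positions and shared 31-base sequences came from the GENCODE annotation and transcripts of mm10.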

Additional observations from a re-analysis of the deposited data

How the results depend on the processing

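Across the 10 other fits on all 5 libraries, 97 of 100 member fold changes kept their direction and stayed above an adjusted p of 0.05. The exceptions came with the replicate block, where Spdef was at -0.0065, Gfi1 at -0.075 and Neurog3 at -0.21 on the log2 scale. Some sizes moved without a change of direction. The block put Hes1 at 0.27, Atoh1 at 0.34, Klf4 at 0.70 and Sox9 at 0.17. Gfi1 was at 0.059 with limma-voom and 0.20 with limma on TPM. Labels do not say that a replicate number marks a shared animal or day, and deviations of same-numbered libraries correlated at -0.0095 and 0.353, so whether the numbers pair libraries is not known, and the report uses no block. With 1 library left out in turn, log2 fold changes ranged from -0.062 to 1.27 (Atoh1), -0.13 to 0.36 (Spdef), -1.01 to 1.11 (Gfi1), -0.27 to 0.25 (Neurog3), -0.012 to 0.55 (Sox9), -0.72 to -0.38 (Foxa1) and 0.42 to 0.81 (Foxa2). Fate factors called ranged from 0 to 2, those at an unadjusted p under 0.05 from 1 (without NDD replicate 2, where 7.34% of all genes were) to 7 (without NDD replicate 1, where 30.1% were), and those without overlap from 3 (which leaving out a library cannot lower) to 8, the last also without NDD replicate 1, where 76.6% of all genes did not overlap. On all 5 libraries, which factors had an unadjusted p under 0.05 also depended on the fit. Klf4 joined with DESeq2 (p 0.0135) and with the block (edgeR p 0.0267), where Foxa2 dropped out (p 0.0606). The Foxa1 to Foxa2 log2 difference ranged from -1.53 to -0.81. The number of fate factors called was planned. The counts at an unadjusted p under 0.05 and without overlap, and the Foxa1 to Foxa2 difference, were added after seeing the data.

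All genes called, 12 in the report, were 357 with DESeq2, 24 with limma-voom, 58 with no filter, 4 with 10 counts required in every library and 33 with the replicate block, and 0 (without WT replicate 1) to 1207 (without NDD replicate 1, leaving 1 NDD library assumed to vary like WT) with a library left out, with 3 and 5 without WT replicate 3 and 2. Members of the other lists called, 1 in the report, were 14 with DESeq2, 4 with no filter, 0 under the stricter filter, 2 with the block and 0 to 23 with a library left out. The cause of these gaps was not tested. Among the 31 list genes named by rule, directions turned with the block for Insl5 (-0.14) and Jag2 (0.061), and on TPM for Rbpj (-0.0057 with a pseudocount of 1, also without a filter, and -0.0063 with 0.1). With a library left out, the ranges that crossed 0 were -1.22 to 0.63 (Id1), -0.074 to 0.23 (Klf5), -0.26 to 0.20 (Xbp1), -0.41 to 0.20 (Pyy), -0.16 to 0.37 (Insl5), -1.94 to 2.21 (Il17rb), -0.30 to 0.084 (Jag2) and -0.077 to 0.11 (Rbpj). Hes6 ranged from -0.24 to -0.11. Sox4 was at -0.24 with the block. Slc37a2 passed the threshold with the block (edgeR adjusted p 0.0319). With no filter, Slc37a2 (edgeR adjusted p 0.0218), Best2 (0.0403) and Lgr5 (0.0444) passed it. Retnlb could not be tested with 10 counts required in every library. Without NDD replicate 1, where 8.62% of all genes were called, Agr2, Best2, Capn9, Fxyd3, Il17rb, Slc37a2, Slc20a1, Lgr5, Pcna and Ccna2 passed the threshold. Without NDD replicate 2, Capn9 was at 0.94 and Slc20a1 at 0.55.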

Other observations

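Notch receptors, ligands and nuclear partners act around the fate factors: 11 of 12 were tested and none was called (edgeR). Their median log2 fold change was -0.02, between -0.15 (without NDD replicate 2) and 0.08 (without NDD replicate 1) with a library left out. At an unadjusted p under 0.05 there were 2, beside 11.2% of all tested genes. Those 2, named after their values were seen, were Dll1, the ligand that secretory progenitors present (187 and 273 counts in NDD, and 135, 137 and 121 in WT; log2 fold change 0.79, SE 0.28, adjusted p 0.437), and Maml3, a co-activator (0.40, SE 0.14). The abundant members were Rbpj, the DNA-binding partner of Notch, at 17.3 and 14.3 TPM in NDD and 15.0 to 16.5 TPM in WT, and Jag2, a ligand, at 13.1 and 16.2 TPM in NDD and 13.9, 14.2 and 20.0 TPM in WT.

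Tuft cells are another secretory type. Of 11 genes, 5 were tested and none was called (edgeR). Plcg2 was the 1 at an unadjusted p under 0.05 (log2 fold change -0.72, SE 0.26), beside 11.2% of all tested genes. The median of the 5 was 0.60, at 1.13 or -1.21 when NDD replicate 1 or 2 was left out. Pou2f3, the factor that specifies tuft cells, named after its values were seen, had at most 2 counts in a library. Il17rb, the interleukin receptor of tuft cells, had 5 counts in NDD replicate 1, 86 in NDD replicate 2 and 14 to 24 in WT.

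Markers of Paneth cells, listed as a check for small intestinal cells, had no common direction, and those named here were picked after their values were seen. Mptx2 had 31 and 73 counts in NDD and 0 in all 3 WT libraries (edgeR adjusted p 0.178), and Itln1 had 114 and 94 counts in NDD and 17 to 22 in WT (adjusted p 0.104). Lyz1 had 13 and 12 counts in NDD and 10, 45 and 180 in WT, and Defa17 had 0 counts in all 5 libraries. None of the 3 tested was called.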
